A study of Mus musculus with 8 samples.

Results

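Bone morphogenetic protein (BMP) signalling was described in the choroid plexus, the secretory epithelium and stroma that makes cerebrospinal fluid, through 10 genes of the 23284 in the count table. They are 6 BMP-family ligands (Gdf7, Bmp2, Bmp4, Bmp5, Bmp6 and Bmp7) and 4 inhibitors of DNA binding (Id1, Id2, Id3 and Id4), taken by gene symbol, and all 10 passed the filter on low counts. The tissue came from mouse embryos at E18.5, and hindbrain choroid plexus (of the fourth ventricle) and telencephalic choroid plexus (of the lateral ventricles) were each sequenced as sorted epithelial cells and as whole tissue, with 2 libraries per group. The sorted cells were positive for a Ttr::RFP reporter, a red fluorescent protein tied to the transthyretin gene, and came from embryos labelled ICR (CD1). The whole tissue came from embryos labelled CD1, with no reporter named. The series' text calls the replicates biological and says that the regions were isolated from shared brains. It does not say whether embryos were pooled, so a pair of libraries is taken here as 1 brain or pool, 4 in all. The strain labels of sorted cells and whole tissue are worded differently but both name CD1, so they give no strain difference. Sorted cells and whole tissue are taken to come from different brains. They also differ in the named reporter and in the handling of a sort, and these cannot be told apart.

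BMP ligands are secreted dimers that bind type I and type II serine/threonine kinase receptors, which phosphorylate Smad1, Smad5 and Smad9. These enter the nucleus with Smad4 and switch on target genes, of which the Id genes are among the best known. Id proteins lack a DNA-binding domain and hold E-proteins, a class of basic helix-loop-helix factors, away from DNA. In the developing brain BMPs are released by the roof plate and dorsal midline, and they are needed to turn midline neuroepithelium into choroid plexus.

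Values are CPM, the counts of a gene relative to the TMM-scaled size of its library, and folds are log2 ± SE of the edgeR quasi-likelihood fit, with p-values adjusted over all 15698 tested genes. A gene is said to be called when its adjusted p is under 0.05. Library totals ran from 8849053 to 31613434 counts, so 1 count was worth 0.0364 to 0.105 CPM. The reads carry no molecular identifiers, so counting intervals cover counting error only. The epithelial label of the sorted cells was checked on 12 choroid epithelial markers, of which 5 were higher and 0 lower in sorted cells than in whole tissue of the hindbrain, and 7 higher and 0 lower in sorted cells than in whole tissue of the telencephalon. All 10 endothelial markers were lower after sorting in both regions (median log2 change -3.85 in hindbrain and -4.68 in telencephalic tissue). Mesenchymal markers summed to 1573 to 1943 CPM in hindbrain sorted cells, against 1807 to 1988 CPM in hindbrain whole tissue (1 of 9 higher, 1 lower), and macrophage markers to 164 to 201 CPM in hindbrain sorted cells, against 183 to 186 CPM in hindbrain whole tissue (0 of 10 higher, 1 lower). The replicates of the hindbrain sorted cells differed most, with a chi-square per degree of freedom of 61.1, against 5.16 to 15.8 in the other groups, and the ribosomal precursor Rn45s took 6.49% and 11.3% of their counts. Rn45s took 13.9% and 11.6% of the counts in telencephalic sorted cells, and 4.07% to 4.4% in the whole-tissue libraries.

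Gdf7, a roof plate ligand of the BMP family, marked the hindbrain choroid plexus, and the Id genes called by region, Id2 and Id4, were higher there as well. Bmp5 went the other way. In whole tissue 3 of the 10 genes were called higher in hindbrain (Gdf7, Id2, Id4) and 1 lower (Bmp5). Of all tested genes 5.79% were called there, with 3.34% higher and 2.45% lower. In sorted cells 4 were higher (Gdf7, Bmp2, Id2, Id4) and 2 lower (Bmp5, Bmp6), beside 15.2% of tested genes called in that comparison (9.06% higher, 6.12% lower). Gdf7, Id2 and Id4 were higher in both preparations, as were 2.49% of tested genes, and Bmp5 was lower in both, as were 1.82%. The median log2 difference over the 10 genes was 0.13 in whole tissue and 0.15 in sorted cells, against 0.01 and -0.0015 over all tested genes. With library totals as the scale, 83.5% instead of 59.7% of the called genes were higher in hindbrain sorted cells, and 70.7% instead of 57.6% in hindbrain whole tissue.

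**Figure D1:**
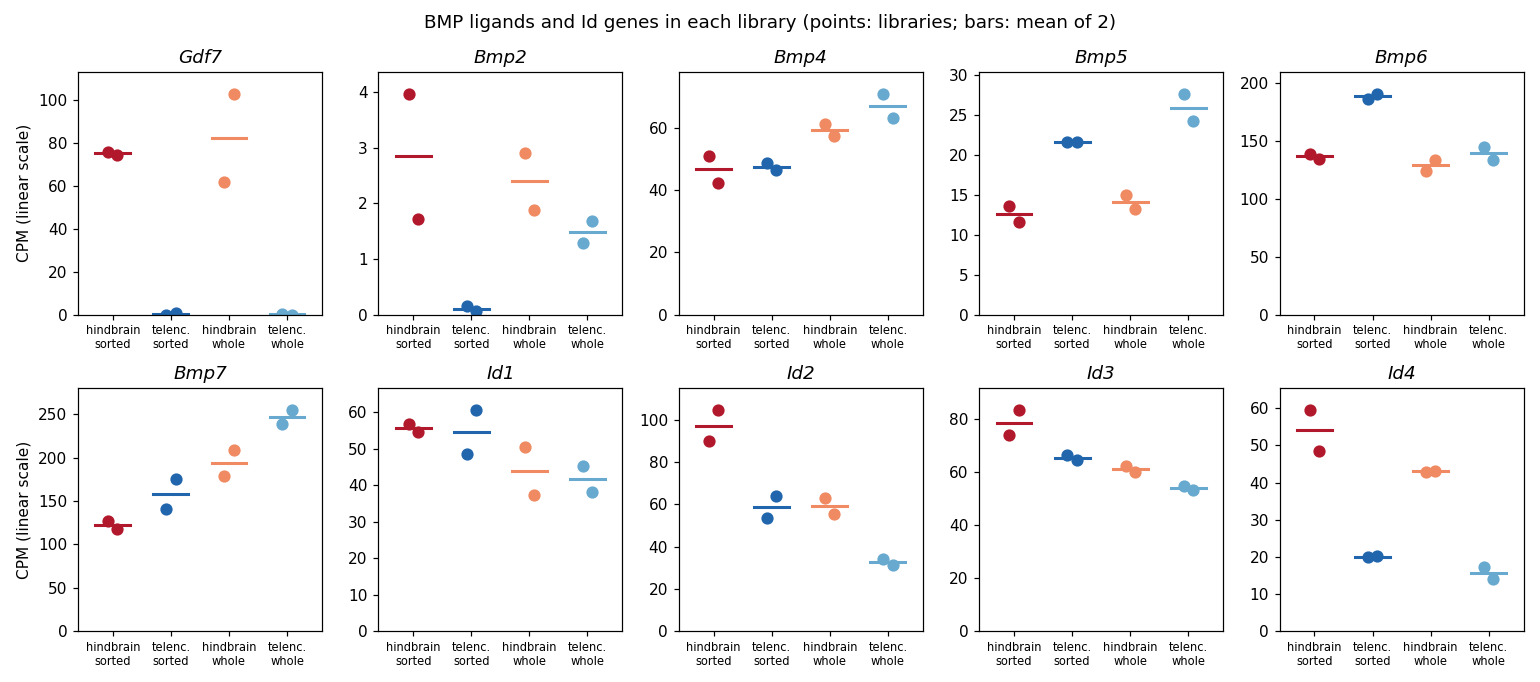
CPM of the 10 genes in every library on linear axes, 1 panel per gene, with the groups hindbrain sorted, telencephalic sorted, hindbrain whole and telencephalic whole from left to right; points are libraries and bars the mean of 2. The 4 hindbrain libraries lie between 61.5 and 103 CPM for Gdf7 and the 4 telencephalic libraries at or below 1.05 CPM.

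Gdf7 is secreted by the roof plate and instructs dorsal cell fates. In whole tissue it had 61.5 and 103 CPM in the hindbrain libraries, against 0.245 and 0.105 CPM in the telencephalic ones. In sorted cells it had 75.6 and 74.4 CPM in hindbrain, against 0.0756 and 1.05 CPM in telencephalic cells. Every hindbrain library stood far above every telencephalic one. Separation in that direction, at any distance, was seen for 26.1% of tested genes in sorted cells and 26.8% in whole tissue. The log2 fold change was 8.69 ± 0.57 in whole tissue (adjusted p = 2.29e-06) and 7.34 ± 0.47 in sorted cells (adjusted p = 1.57e-06). The telencephalic values rested on 5 counts in whole tissue and 19 in sorted cells, 17 of them in replicate 2. As a ratio of summed counts, Gdf7 was 417-fold higher in hindbrain whole tissue (95% counting interval 178 to 1284) and 168-fold higher in hindbrain sorted cells (108 to 279.5). The sorted value was 9.85 without telencephalic sorted replicate 2 and 6.14 without telencephalic sorted replicate 1. Between sorted cells and whole tissue Gdf7 differed by -0.13 ± 0.28 in hindbrain (adjusted p = 0.779, and 0.29 when hindbrain whole replicate 2 was omitted) and by 1.23 ± 1.18 in telencephalic tissue (adjusted p = 0.497), where its counts were few.

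The Gdf7 promoter window is shown because its gene differed most between the regions. It covers the 250 bases before the RefSeq start on the minus strand, chr12:8301955-8302204 in build GRCm38.p6, with 66.0% G and C.
Gdf7: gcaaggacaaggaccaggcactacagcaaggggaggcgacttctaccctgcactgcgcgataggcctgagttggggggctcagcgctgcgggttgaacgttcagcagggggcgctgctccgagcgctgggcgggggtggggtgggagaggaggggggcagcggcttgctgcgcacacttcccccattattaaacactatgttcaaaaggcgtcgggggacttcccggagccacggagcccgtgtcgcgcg
This window held neither GGCGCC, a GC-rich motif bound by BMP-activated Smads, nor GTCT, the core Smad motif, nor CANNTG, the E-box of E-proteins, on either strand. The motifs were present in 9.59%, 82.9% and 66.2% of the 32841 promoter windows of this length.

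Bmp2, a ligand closely related to Bmp4, was scarce, and lowest in telencephalic sorted cells. Sorted cells had 3.96 and 1.72 CPM in hindbrain, against 0.151 and 0.062 CPM in telencephalic cells. Whole tissue had 2.90 and 1.89 CPM in hindbrain, against 1.28 and 1.68 CPM in telencephalic tissue. Both telencephalic sorted libraries stood below every other library, and the hindbrain sorted replicates held 109 and 47 counts. In sorted cells the regional difference was 4.55 ± 0.66 (adjusted p = 0.000554), a 24.3-fold ratio of 156 to 5 counts (95% counting interval 10.2 to 75.8). It was 3.82 without hindbrain sorted replicate 1 and 5.39 without telencephalic sorted replicate 1. Whole tissue gave 0.72 ± 0.51 (adjusted p = 0.569, 95% interval -0.39 to 1.82). The difference between these regional effects was 3.84 ± 0.86 (adjusted p = 0.0528), or 3.95 ± 0.78 with brain as a block (adjusted p = 0.0163), and the adjusted p ran from 0.0027 to 0.229 over all the alternatives. Telencephalic sorted cells held less Bmp2 than telencephalic whole tissue (-3.59 ± 0.71, adjusted p = 0.00368), while the hindbrain value was 0.24 ± 0.46 (adjusted p = 0.746). Omitting hindbrain sorted replicate 1 turned the hindbrain value to -0.48, and omitting hindbrain whole replicate 2 turned it to -0.03.

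Markers of the epithelium and of other cell types moved with the regional contrast in sorted cells, and so with Bmp2. Choroid epithelial markers summed to 169950 to 221130 CPM in hindbrain and 266220 to 290350 CPM in telencephalic sorted cells, with 2 of 12 higher and 5 lower. Nearly all of each sum was Ttr, with 158987 and 210675 CPM in hindbrain and 281816 and 257038 CPM in telencephalic sorted cells. The sums therefore say little of the other epithelial markers. Summed mural markers reached 265 to 296 CPM in hindbrain sorted cells and 69.8 to 76.7 in telencephalic sorted cells, with 8 of 10 higher and 0 lower. Macrophage markers reached 164 to 201 CPM in hindbrain sorted cells and 33.7 to 56.7 in telencephalic sorted cells, with 10 of 10 higher. Mesenchymal markers reached 1573 to 1943 CPM in hindbrain and 950 to 1019 CPM in telencephalic sorted cells, with 8 of 9 tested higher. Endothelial markers reached 160 to 162 CPM in hindbrain and 115 to 124 CPM in telencephalic sorted cells, with 4 of 10 higher. Neuronal markers stood at 31.9 to 34.9 CPM in hindbrain and 17.6 to 18.2 CPM in telencephalic sorted cells (1 of 9 higher, 1 lower), and neural progenitor or glial markers at 399 to 508 CPM in hindbrain and 586 to 700 CPM in telencephalic sorted cells (4 of 9 higher, 3 lower). Most of the progenitor or glial sum was Vcam1, with 445 and 346 CPM in hindbrain and 535 and 644 CPM in telencephalic sorted cells. The median log2 difference of that list was 0.75, higher in hindbrain. Of the defining markers, Cldn5 had 0 counts in 1 library of each sorted group and Dpt in 1 library of each of the 4 groups. Neurod1 and Gap43 had 0 counts in 3 of the 4 sorted libraries, Tubb3 in 2 and Snap25 in 1. Hes5 had 0 counts in 2 sorted libraries, and Olig2 in 3 of them and in 1 telencephalic whole library. Erythroid markers, without the globins, which were listed at 0 in every library, stood at 9.28 to 11.0 CPM in hindbrain and 6.77 to 9.99 CPM in telencephalic sorted cells, with 0 of 3 called. Their part in the Bmp2 difference, and in those of the other 9 genes in sorted cells, was not tested. In whole tissue 5 of 9 mesenchymal, 3 of 9 neuronal, 1 of 10 macrophage, 1 of 10 endothelial and 0 of 10 mural markers were higher in hindbrain. Choroid epithelial markers had 2 of 12 higher and 3 lower, with sums of 147760 to 149800 CPM in hindbrain and 178220 to 193570 CPM in telencephalic whole tissue. Again nearly all of each sum was Ttr (139350 and 140855 CPM in hindbrain, 187027 and 172085 CPM in telencephalic whole tissue). Progenitor or glial markers had 2 of 9 higher and 1 lower, with sums of 443 to 451 CPM in hindbrain and 724 to 737 CPM in telencephalic whole tissue. Vcam1 made up most of these sums, with 312 and 316 CPM in hindbrain and 623 and 652 CPM in telencephalic whole tissue. The median log2 difference of that list was 0.33, higher in hindbrain. Erythroid markers had 1 of 3 higher, with sums of 59.8 to 64.7 CPM in hindbrain and 27.2 to 34.1 CPM in telencephalic whole tissue. Mesenchymal markers summed to 1807 to 1988 CPM in hindbrain and 1304 to 1502 CPM in telencephalic whole tissue, and neuronal markers to 92.4 to 119 CPM in hindbrain and 40.8 to 51.4 CPM in telencephalic whole tissue. Their part in the whole-tissue differences was not tested. In such bulk libraries fewer cells of a type and less RNA per cell cannot be told apart.

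Bmp4, a ligand closely related to Bmp2, was not called between the regions. It ranged from 42.4 to 50.9 CPM in hindbrain sorted cells and from 46.3 to 48.6 CPM in telencephalic sorted cells, and from 57.4 to 61.1 CPM in hindbrain whole tissue and 63.0 to 70.8 CPM in telencephalic whole tissue. The regional log2 difference was -0.03 ± 0.13 in sorted cells (adjusted p = 0.930, 95% interval -0.31 to 0.26, and 0.18 with library totals as the scale). In whole tissue it was -0.18 ± 0.13 (adjusted p = 0.583, 95% interval -0.46 to 0.11). Both intervals include 0, and neither shows that the levels are equal. The groups overlapped in sorted cells and did not in whole tissue, as for 51.6% of tested genes. In GENCODE M21 89 exon bases of Bmp4 lie opposite Gm15217.

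Bmp5, a ligand of the Bmp5, Bmp6 and Bmp7 subfamily, was lower in the hindbrain. Sorted cells had 13.6 and 11.6 CPM in hindbrain, against 21.7 and 21.6 CPM in telencephalic cells. Whole tissue had 15 and 13.2 CPM in hindbrain, against 27.6 and 24.2 CPM in telencephalic tissue. All hindbrain libraries lay below all telencephalic ones, and within the 4 brains the hindbrain level was 0.539 to 0.626 of the telencephalic level. Groups did not overlap, in either direction, for 51.9% of tested genes in sorted cells and 51.6% in whole tissue. The difference was -0.78 ± 0.16 in sorted cells (adjusted p = 0.00606) and -0.88 ± 0.16 in whole tissue (adjusted p = 0.006). Omitting telencephalic whole replicate 1 (adjusted p = 0.119) or hindbrain whole replicate 2 (0.071) ended the whole-tissue call. The kits named in the labels mark no strand, and 1878 exon bases of Bmp5 overlap the antisense gene Gm26903 in GENCODE M21, so reads of the pair cannot be told apart.

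Bmp6, which in other tissues also controls iron balance, was lower in hindbrain sorted cells. They had 139 and 135 CPM, against 187 and 191 CPM in telencephalic sorted cells, with no overlap, as for 51.9% of tested genes. Whole tissue had 124 and 134 CPM in hindbrain, against 145 and 134 CPM in telencephalic tissue, with overlap. The difference was -0.46 ± 0.11 in sorted cells (adjusted p = 0.0117) and -0.11 ± 0.11 in whole tissue (adjusted p = 0.706), and the test of the difference between these effects gave -0.35 ± 0.15 (adjusted p = 0.492). The sorted-cell call ended when either telencephalic sorted library was omitted (adjusted p = 0.0664 for replicate 1 and 0.0699 for replicate 2), and when counts were scaled by library totals (-0.26, adjusted p = 0.185). Bmp6 shares 224 exon bases with Txndc5 on the opposite strand.

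Bmp7, a ligand of the same subfamily, was lower in the hindbrain library of all 4 brains, at 0.672 to 0.904 of the telencephalic level, but was not called. Sorted cells had 127 and 118 CPM in hindbrain, against 141 and 175 CPM in telencephalic cells. Whole tissue had 179 and 209 CPM in hindbrain, against 239 and 255 CPM in telencephalic tissue. The groups did not overlap in either preparation, which was also so for 51.9% of tested genes in sorted cells and 51.6% in whole tissue. The difference was -0.37 ± 0.13 in sorted cells (adjusted p = 0.0818, 95% interval -0.65 to -0.08) and -0.35 ± 0.13 in whole tissue (adjusted p = 0.178, 95% interval -0.63 to -0.06). Without the low-count filter the sorted-cell difference was called (adjusted p = 0.0491).

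The order of the ligands by mean level is given per length of transcript, and the place of Gdf7 depends on that length. In CPM, Gdf7 (75.0) stood below Bmp6 (137) and Bmp7 (122) in hindbrain sorted cells. Hindbrain whole tissue gave 82.1 CPM for Gdf7, against 129 for Bmp6 and 194 for Bmp7. The exons of Gdf7 cover 1423 bases, against 3593 for Bmp6 and 3670 for Bmp7. Per kilobase of exon, hindbrain sorted cells held most of Gdf7 (52.7 ± 0.60 CPM per kb, SD), then Bmp6 (38.2 ± 0.87), Bmp7 (33.4 ± 1.86), Bmp4 (22.6 ± 2.91), Bmp5 (3.30 ± 0.36) and Bmp2 (0.80 ± 0.45). Telencephalic sorted cells held most of Bmp6 (52.5 ± 0.83), then Bmp7 (43.1 ± 6.62), Bmp4 (23.0 ± 0.79), Bmp5 (5.66 ± 0.016), Gdf7 (0.40 ± 0.49) and Bmp2 (0.03 ± 0.018). In hindbrain whole tissue Gdf7 (57.7 ± 20.4) and Bmp7 (52.9 ± 5.86) did not differ beyond their spread, and Bmp6 (35.9 ± 1.97) and Bmp4 (28.7 ± 1.26) followed. Telencephalic whole tissue was led by Bmp7 (67.3 ± 3.07), before Bmp6 (38.8 ± 2.21) and Bmp4 (32.4 ± 2.68), with Gdf7 at 0.12 ± 0.07 (n = 2 for each value). Exon lengths are those of GENCODE M21, and the annotation used for counting is not given in the sources used here.

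**Figure D2:**
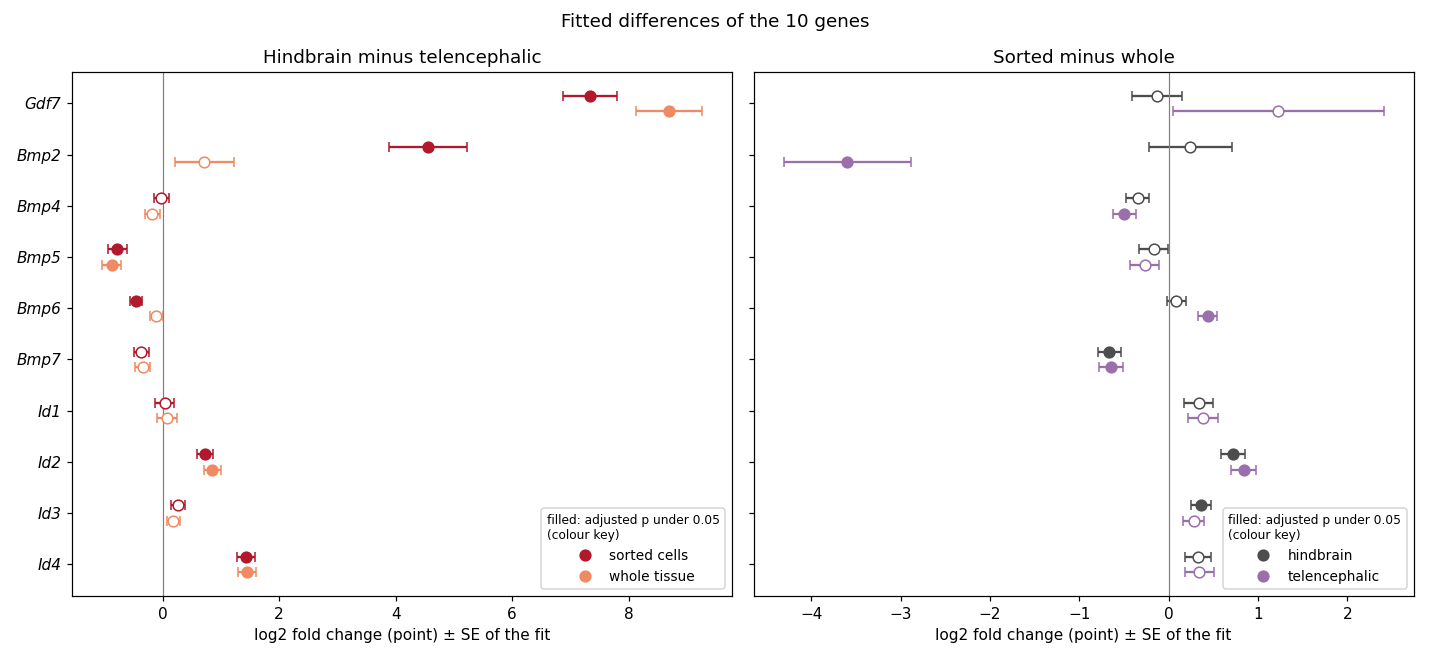
Fitted log2 fold changes ± SE of the 10 genes, hindbrain minus telencephalic on the left (sorted cells above whole tissue) and sorted minus whole on the right (hindbrain above telencephalic); filled points have an adjusted p under 0.05. Gdf7 at 7.34 and 8.69 lies far to the right of the others in the left panel, and Id2 is filled in all 4 comparisons.

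Of the 4 Id genes, Id2 and Id4 were called by region and Id1 and Id3 were not. This division follows the threshold on adjusted p, and the genes were not tested against each other. Id4, known from neural progenitors and glia, showed the largest regional difference of the 4. Sorted cells had 59.5 and 48.6 CPM of Id4 in hindbrain, against 19.9 and 20.2 CPM in telencephalic cells. Whole tissue had 42.9 and 43.1 CPM in hindbrain, against 17.4 and 13.9 CPM in telencephalic tissue. Every hindbrain library lay above every telencephalic one, and the within-brain ratio was 2.41 to 3.09. Of all tested genes 26.1% had the hindbrain libraries above the telencephalic ones without overlap in sorted cells, and 26.8% in whole tissue. The log2 difference was 1.43 ± 0.15 in sorted cells (adjusted p = 4.44e-05) and 1.44 ± 0.16 in whole tissue (adjusted p = 0.000151), and the difference between these was -0.01 ± 0.21 (adjusted p = 0.999). In GENCODE M21 the Id4 exons share 82 and 171 bases with the opposite-strand genes A330033J07Rik and Gm49291.

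Id2, which restrains E-proteins in many developing lineages, had 90.0 and 105 CPM in hindbrain sorted cells, against 53.5 and 64.1 CPM in telencephalic sorted cells. Whole tissue had 63.0 and 55.5 CPM in hindbrain, against 34.1 and 31.4 CPM in telencephalic tissue. Within each preparation the hindbrain libraries lay above the telencephalic ones, with within-brain ratios of 1.63 to 1.85. The same separation held for 26.1% of tested genes in sorted cells and 26.8% in whole tissue. The difference was 0.73 ± 0.14 in sorted cells (adjusted p = 0.00298) and 0.85 ± 0.14 in whole tissue (adjusted p = 0.00271). Omitting telencephalic sorted replicate 1 ended the sorted-cell call (0.60, adjusted p = 0.0576), and omitting telencephalic whole replicate 2 ended the whole-tissue call (0.80, adjusted p = 0.0535).

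Id1 and Id3, early targets of BMP receptors, were not called between the regions. Id1 had 54.5 to 56.7 CPM in hindbrain sorted cells and 48.5 to 60.6 in telencephalic ones, and 37.4 to 50.5 CPM in hindbrain whole tissue and 38.1 to 45.3 in telencephalic whole tissue. The groups overlapped in both preparations. The log2 difference of Id1 was 0.03 ± 0.16 in sorted cells (adjusted p = 0.938, 95% interval -0.32 to 0.39) and 0.07 ± 0.17 in whole tissue (adjusted p = 0.901, 95% interval -0.29 to 0.44). Id3 was higher in the hindbrain library of all 4 brains, by ratios of 1.11 to 1.29, a pattern not counted over all tested genes. It had 73.7 and 83.1 CPM in hindbrain sorted cells, against 66.4 and 64.3 CPM in telencephalic ones, and 62.2 and 59.8 CPM in hindbrain whole tissue, against 54.5 and 53.0 CPM in telencephalic whole tissue. Its difference of 0.26 ± 0.11 in sorted cells was not called (adjusted p = 0.153), except with library totals as the scale (0.46, adjusted p = 0.0206), nor was that of 0.18 ± 0.12 in whole tissue (adjusted p = 0.512). Summed over the 4 Id genes, the hindbrain sorted libraries had 280 and 291 CPM, against 188 and 209 CPM in the telencephalic sorted libraries. The sums in whole tissue were 219 and 196 CPM in hindbrain, against 151 and 136 CPM in telencephalic tissue.

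Promoter windows are shown for Id2 and Id4, which moved together between the regions, and for Id3, which was not called. Each holds the 250 bases before the RefSeq start in build GRCm38.p6, chr12:25096093-25096342 on the minus strand for Id2, chr4:136143572-136143821 on the plus strand for Id3 and chr13:48260866-48261115 on the plus strand for Id4. Capitals mark GGCGCC.
Id2: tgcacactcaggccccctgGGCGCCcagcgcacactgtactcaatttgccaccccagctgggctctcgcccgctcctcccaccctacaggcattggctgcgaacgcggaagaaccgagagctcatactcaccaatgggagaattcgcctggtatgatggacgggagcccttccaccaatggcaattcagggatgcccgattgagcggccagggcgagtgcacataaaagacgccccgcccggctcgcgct
Id4: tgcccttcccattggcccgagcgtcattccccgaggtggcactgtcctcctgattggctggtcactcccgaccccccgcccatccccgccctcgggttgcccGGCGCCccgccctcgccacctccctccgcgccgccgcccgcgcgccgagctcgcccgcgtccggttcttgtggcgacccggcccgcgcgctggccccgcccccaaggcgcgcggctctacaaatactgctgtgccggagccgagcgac
Id3: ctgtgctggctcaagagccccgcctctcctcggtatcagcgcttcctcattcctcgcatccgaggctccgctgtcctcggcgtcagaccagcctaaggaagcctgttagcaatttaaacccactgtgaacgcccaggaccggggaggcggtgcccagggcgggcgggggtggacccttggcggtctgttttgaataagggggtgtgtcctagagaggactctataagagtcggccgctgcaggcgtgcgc
The Id2 and Id4 windows each held 1 GGCGCC and the Id3 window held 0, as did those of Gdf7, Bmp4, Bmp5 and Bmp6. No window was available for Id1, the other Id gene not called by region, nor for Bmp2 and Bmp7. The windows therefore cannot show whether the motif goes with the regional calls, and sequence outside the 250 bases was not searched. The motif is common in GC-rich promoters. It was in 26.1% of the 9177 windows with at least 60% G and C, and the Id2, Id3 and Id4 windows had 62.8%, 62.8% and 75.6%. GTCT was found 1, 2 and 0 times in the Id2, Id3 and Id4 windows, and CANNTG 1, 0 and 0 times, counting both strands. A match of letters is a description of the window and says nothing of binding.

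**Figure D3:**
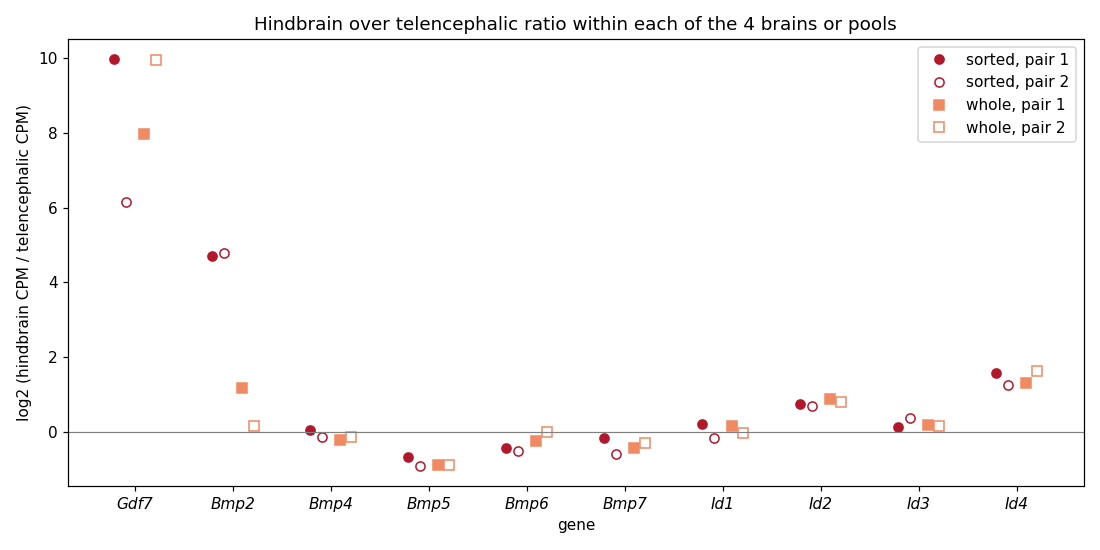
Log2 ratio of hindbrain over telencephalic CPM within each of the 4 brains or pools for the 10 genes; circles are sorted cells, squares whole tissue, filled symbols pair 1 and open symbols pair 2. Id2, Id3, Id4, Gdf7 and Bmp2 lie above 0 in all 4 pairs and Bmp5 and Bmp7 below 0 in all 4. The share of all tested genes on 1 side of 0 in all 4 pairs was not computed, so these counts cannot be set against it.

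The comparison of sorted cells with whole tissue asked which of these transcripts stay with the reporter-positive cells. In telencephalic tissue 2 of the 10 genes were higher in sorted cells (Bmp6, Id2) and 3 lower (Bmp2, Bmp4, Bmp7), beside 22.4% of tested genes called (9.88% higher, 12.5% lower) and 66.3% without overlap between groups. In hindbrain tissue 2 were higher (Id2, Id3) and 1 lower (Bmp7), beside 22.1% called (10.2% higher, 11.9% lower) and 59.7% without overlap. With library totals as the scale, 10.5% instead of 44.1% of called genes were higher in telencephalic sorted cells, and 20.1% instead of 46.3% in hindbrain sorted cells. Id2 was called higher in both regions, by 0.72 ± 0.13 in hindbrain (adjusted p = 0.00286) and 0.84 ± 0.14 in telencephalic tissue (adjusted p = 0.00125). All 4 Id genes had a positive difference in both regions, except Id3 in telencephalic tissue with library totals as the scale (-0.04). Id1 differed by 0.34 ± 0.16 in hindbrain (adjusted p = 0.163) and 0.38 ± 0.17 in telencephalic tissue (adjusted p = 0.126, and 0.0468 in the 4 libraries of that comparison alone). Id4 differed by 0.33 ± 0.15 in hindbrain (adjusted p = 0.124, and 0.044 when hindbrain sorted replicate 2 was omitted) and 0.34 ± 0.16 in telencephalic tissue (adjusted p = 0.146). Id3 in telencephalic tissue stood at 0.28 ± 0.12 (adjusted p = 0.106). The Id3 value of 0.36 ± 0.11 in hindbrain (adjusted p = 0.0395) lost its call when any 1 of the 8 libraries other than hindbrain sorted replicate 1 was omitted (adjusted p = 0.0593 to 0.178), in the 4 libraries of the comparison alone (0.116) and with library totals (0.16, 0.376).

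Bmp7 was the ligand called lower in sorted cells of both regions, by -0.66 ± 0.13 in hindbrain (adjusted p = 0.00382) and -0.65 ± 0.13 in telencephalic tissue (adjusted p = 0.0043). Omitting telencephalic sorted replicate 1 ended the telencephalic call (-0.49, adjusted p = 0.0638). Bmp4 was lower in telencephalic sorted cells by -0.50 ± 0.13 (adjusted p = 0.0177). That call ended when telencephalic sorted replicate 1 (adjusted p = 0.0764), telencephalic sorted replicate 2 (0.0971) or telencephalic whole replicate 1 (0.168) was omitted. In hindbrain the Bmp4 value was -0.35 ± 0.13 (adjusted p = 0.0748), but called when hindbrain sorted replicate 1 was omitted (0.0262) and under library totals (0.0206). Bmp6 was higher in telencephalic sorted cells by 0.44 ± 0.11 (adjusted p = 0.0123). That call ended when any 1 of the 4 telencephalic libraries was omitted (adjusted p = 0.054 to 0.116) and with library totals (0.12, 0.526). In hindbrain Bmp6 differed by 0.09 ± 0.11 (adjusted p = 0.6, and -0.11 with library totals). Bmp5 differed by -0.16 ± 0.16 in hindbrain (adjusted p = 0.507) and -0.27 ± 0.16 in telencephalic tissue (adjusted p = 0.265). The telencephalic Bmp5 value was called under library totals (-0.58, adjusted p = 0.024).

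No member was called for a difference between the regional effects of sorted cells and whole tissue in the main edgeR fit, while 1.34% of tested genes were (1.1% higher, 0.242% lower). At an unadjusted p under 0.05 there were 2 (Bmp2 and Bmp6). Bmp2 was called by DESeq2, and by edgeR with library totals, without the low-count filter or with brain as a block. Many other genes passed the unadjusted threshold in the main edgeR test. Acvr1, with an unadjusted p of 0.0457, had rank 1384 of the 15698 tested genes, and Dlx5, with 0.0516, had rank 1518. Between these ranks lies the number of genes passing, so the 2 members are not shown to be an excess.

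Other genes of the pathway were taken from 6 lists, of which 63 distinct genes were tested. In whole tissue 9 of them were called between the regions and in sorted cells 17, with 8 shared and 45 called in neither, beside the 5.79% and 15.2% of all genes. Smad6, Smad7 and Bambi stand in 2 lists. Of 13 further ligands 7 were tested, and Gdf10, an inhibitory BMP relative, was the one called higher in hindbrain in both preparations. Gdf10 had 11.3 and 8.73 CPM in hindbrain sorted cells, against 1.17 and 0.434 CPM in telencephalic ones, and 11.7 and 11.3 CPM in hindbrain whole tissue, against 4.77 and 4.30 CPM in telencephalic whole tissue. Its difference was 3.54 ± 0.34 in sorted cells (adjusted p = 2.4e-05) and 1.34 ± 0.30 in whole tissue (adjusted p = 0.0182), and the effects differed by 2.20 ± 0.45 (adjusted p = 0.0345). Bmp15, known from oocytes, had 13 and 8 counts in hindbrain whole tissue, against 34 and 14 counts in telencephalic whole tissue (-1.97 ± 0.53, adjusted p = 0.0479). The most abundant of the list, Gdf5 and Gdf11, were not called in sorted cells (-0.45 ± 0.18 and 0.42 ± 0.24).

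Of 10 tested receptors and co-receptors 0 were called in whole tissue (edgeR), where Bmpr2 and Bmpr1a, the type II and type I BMP receptors with the most counts, differed by -0.09 ± 0.15 and -0.04 ± 0.19. In sorted cells 2 were higher in hindbrain, the endoglin gene Eng (1.44 ± 0.19, adjusted p = 0.000219) and the type I receptor gene Acvrl1 (1.65 ± 0.27, adjusted p = 0.00149), both known from blood vessels. Eng had 41.9 and 30.2 CPM in hindbrain sorted cells, against 14.9 and 11.4 CPM in telencephalic sorted cells. In whole tissue Eng went the other way, uncalled (-0.29 ± 0.18, adjusted p = 0.480), and the regional effects differed by 1.73 ± 0.26 (adjusted p = 0.0053). Telencephalic sorted cells held less Eng than telencephalic whole tissue (-2.62 ± 0.19, adjusted p = 1.57e-06). The endothelial marker sums moved the same way, with 4 of 10 markers called higher, and the sums of other cell types moved too, as given above. Their part in the Eng and Acvrl1 differences was not tested. After sorting Acvrl1 differed from whole tissue by -2.69 ± 0.22 in hindbrain (adjusted p = 5.85e-06) and by -4.11 ± 0.26 in telencephalic tissue (adjusted p = 4.7e-07). Of 17 tested extracellular antagonists and modulators 1 was higher in hindbrain whole tissue (Nbl1, 1.42 ± 0.38) and 2 lower, Tll1 (-0.99 ± 0.16, adjusted p = 0.00235) and Bmp1 (-0.71 ± 0.15, adjusted p = 0.0122), proteases that cut the BMP antagonist chordin. In sorted cells Tll1 and Bmp1 were lower again (-0.92 ± 0.16 and -0.73 ± 0.15), and 4 were higher. By adjusted p the first were Bmper (1.33 ± 0.19, adjusted p = 0.000541) and Kcp (1.37 ± 0.31, adjusted p = 0.0102), which bind BMPs outside the cell, and Nbl1 had the larger fold (1.71 ± 0.43, adjusted p = 0.0177).

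**Figure D4:**
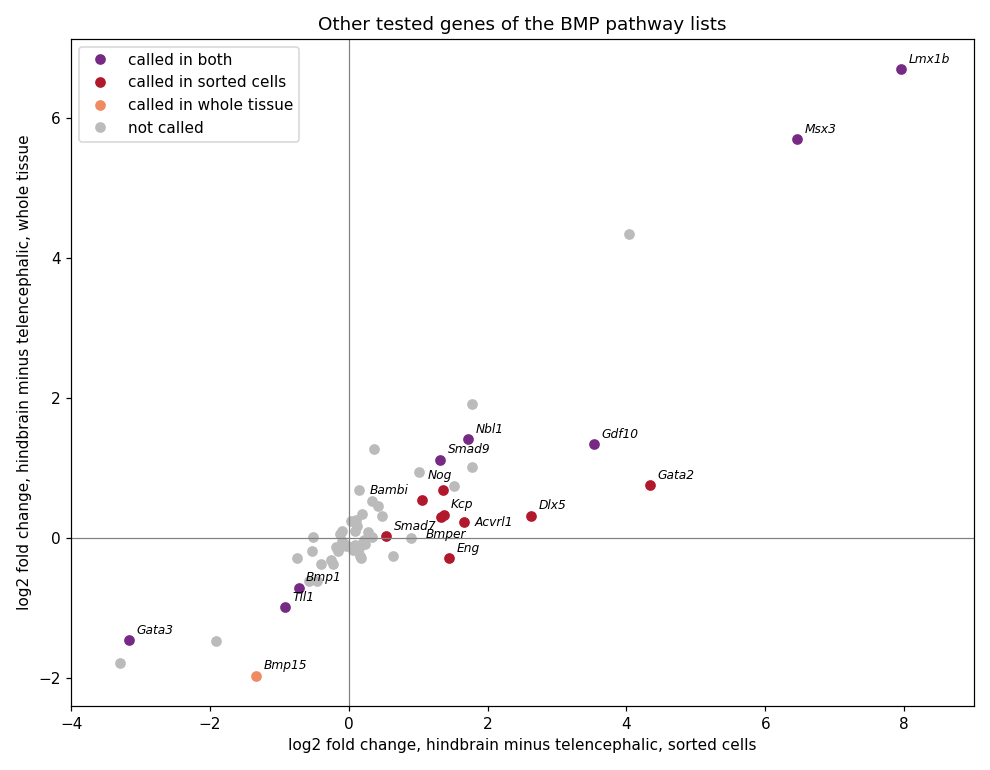
Log2 fold change, hindbrain minus telencephalic, in sorted cells (x axis) and whole tissue (y axis) for the 63 tested genes of the pathway lists; colours show where a gene had an adjusted p under 0.05, and called genes are named. Lmx1b and Msx3 lie at the upper right, Gata3 at the lower left, and Smad9 and Gdf10 among the genes called in both.

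Of 13 transducers and feedback genes Smad9, one of the receptor-activated Smads, was the one called in both preparations. It had 32.2 and 28.8 CPM in hindbrain sorted cells, against 12.4 and 12.2 CPM in telencephalic ones, and 29.8 and 28.7 CPM in hindbrain whole tissue, against 13.1 and 13.8 CPM in telencephalic whole tissue. All hindbrain libraries stood above all telencephalic ones, with differences of 1.31 ± 0.15 in sorted cells (adjusted p = 6.83e-05) and 1.12 ± 0.15 in whole tissue (adjusted p = 0.000644). Hindbrain libraries lay above telencephalic ones for 26.1% of tested genes in sorted cells and 26.8% in whole tissue. The feedback inhibitors Bambi (1.05 ± 0.24, adjusted p = 0.011) and Smad7 (0.53 ± 0.14, adjusted p = 0.02) were higher in hindbrain sorted cells. Smurf2 and Ski, the most abundant of the list, were not called in whole tissue (-0.17 ± 0.10 and 0.16 ± 0.11). Of 15 other target genes 2 were higher and 1 lower in hindbrain whole tissue, and 6 higher and 1 lower in hindbrain sorted cells. Lmx1b, a homeobox gene of the dorsal midline, had 401 counts in hindbrain sorted cells against 1 in telencephalic ones, a ratio of 312 (95% counting interval 55.7 to 12350), and 386 against 2 in whole tissue, a ratio of 109 (29.9 to 900.5). Msx3 had 28 counts in hindbrain sorted cells, 26 of them in replicate 2, against 0 in telencephalic ones, and 106 against 1 in whole tissue. Gata2 had 5.78 and 6.94 CPM in hindbrain sorted cells, against 0.265 and 0.372 CPM in telencephalic ones (4.34 ± 0.37, adjusted p = 9.48e-06). Whole tissue had 7.90 and 7.18 CPM of Gata2 in hindbrain, against 5.14 and 3.67 CPM in telencephalic tissue. That difference was not called (0.76 ± 0.28, adjusted p = 0.161), and the regional effects differed by 3.58 ± 0.47 (adjusted p = 0.00241). Telencephalic sorted cells held less Gata2 than telencephalic whole tissue (-3.83 ± 0.38, adjusted p = 1.98e-05). Gata3 was lower in hindbrain in sorted cells (-3.17 ± 0.34, adjusted p = 5e-05) and whole tissue (-1.46 ± 0.34, adjusted p = 0.0218). Of the Id partners and related genes 0 of 4 were called between regions in either preparation by edgeR, and the most abundant were the E-protein genes Tcf4 and Tcf12. Tcf4 differed by -0.05 ± 0.11 in sorted cells and -0.12 ± 0.11 in whole tissue, and Tcf12 by -0.10 ± 0.13 in sorted cells and -0.04 ± 0.14 in whole tissue.

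The lists were counted between sorted cells and whole tissue too, where 10.2% of all tested genes were higher and 11.9% lower in hindbrain, and 9.88% higher and 12.5% lower in telencephalic tissue. In hindbrain 0 receptors were higher and 2 lower, 0 antagonists higher and 6 lower, 0 transducers higher and 3 lower, and 0 targets higher and 1 lower in sorted cells, with 1 further ligand higher and the Id partners 1 higher (Hes1) and 1 lower. In telencephalic tissue 0 receptors were higher and 4 lower, 1 antagonist higher and 7 lower, 0 transducers higher and 3 lower, 3 targets higher and 2 lower, 1 further ligand higher and 1 lower, and 0 Id partners higher and 1 lower. Markers moved with both comparisons. In hindbrain sorted cells 10 of 10 endothelial, 8 of 9 neuronal, 5 of 10 mural, 4 of 9 progenitor or glial, 3 of 3 erythroid, 1 of 10 macrophage and 1 of 9 mesenchymal markers were lower, and 5 of 12 epithelial and 1 of 9 mesenchymal markers higher. In telencephalic sorted cells 10 of 10 endothelial, 9 of 10 mural, 8 of 10 macrophage, 6 of 9 mesenchymal, 6 of 9 neuronal, 3 of 9 progenitor or glial and 2 of 3 erythroid markers were lower, and 7 of 12 epithelial markers higher. Their part in these counts, and in the values of Bmp2, Bmp4, Bmp7 and the other members between sorted cells and whole tissue, was not tested.

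Genes with the pattern most like 3 of the members were sought over the 8 libraries among 12484 candidate genes. Likeness was the root-mean-square difference of log2 CPM after centring each gene. Nearest to Gdf7 were Penk (1.11), Lmx1b (1.16) and Meis1 (1.19), all with higher means in the hindbrain groups. Nearest to Bmp4 were Zfp217 (0.052), Mr1 (0.053) and Arnt (0.059), and nearest to Id1 were Cgn (0.065), Zfand1 (0.074) and Rbm28 (0.085).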

How the data were processed

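RNA sequencing covered 8 libraries in 4 groups. The authors deposited raw counts of reads for 23284 gene symbols in 1 table. Named in the submitters' processing notes are TopHat2 2.0.4 with Bowtie2 2.0.5, CASAVA 1.8.2, HTSeq and DESeq 1, with build mm9. The annotation and the strand setting of the counting are not given there. Per the labels' protocols, RNA was pre-amplified with a NuGEN Ovation kit before TruSeq library preparation, which can distort levels. The members and lists were chosen with earlier results of these data known.

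Counts were fitted in edgeR 4.0.16 (R 4.3.3): filterByExpr (minimum count 10, minimum total 15), TMM scaling, 4 group means, quasi-likelihood F tests of 5 contrasts, and Benjamini-Hochberg adjustment over 15698 genes. The SE is the log2 fold change over the square root of F. The fit was tested on simulated data. DESeq2 1.42.0, other scalings, no filter, fewer libraries and a brain block were tried. Libraries are paired by the series' text and shared labels: deviations of paired libraries correlated at 0.441 in whole tissue and 0.0332 in sorted cells, across 9044 genes of at least 10 CPM. All members are reported. Other pathway genes were named where called, at most 4 for a list and contrast, with the 2 of highest level taken where fewer than 2 were called. Promoter windows are RefSeq's, and 7 of the 10 members matched. No replicate pair agreed within sampling noise.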

Additional observations from a re-analysis of the deposited data

How the results depend on the processing

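Leaving out 1 library changed the number of members called from 4 to between 3 and 4 in whole tissue by region, from 6 to between 4 and 6 in sorted cells, from 5 to between 2 and 5 in telencephalic sorted minus whole, from 3 to between 2 and 4 in hindbrain sorted minus whole, and from 0 to between 0 and 1 for the interaction. A lone library is then assumed to vary like the other groups. The interaction count was 1 (Bmp2) with DESeq2, library totals, no low-count filter and the replicate block. Over all genes, leaving out 1 library gave 322 to 1346 calls instead of 909 in whole tissue, 1048 to 3218 instead of 2383 in sorted cells, 58 to 456 instead of 211 for the interaction, 1722 to 3836 instead of 3472 in hindbrain and 1536 to 4518 instead of 3517 in telencephalic sorted minus whole. The 4 libraries of a comparison alone gave 1587 in whole tissue, 1460 in sorted cells and 2236 in hindbrain sorted minus whole. Interaction calls over all genes numbered 335 with DESeq2, 441 without the filter and 337 with brain as a replicate block. The block changed no member's call other than that of Bmp2. No paired analysis was possible for sorted minus whole because these libraries are taken to come from different brains.

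Directions that turned were all of uncalled values. Library totals shifted the median of all genes by 0.20 in sorted cells, 0.13 for the interaction, -0.30 in telencephalic and -0.19 in hindbrain sorted minus whole. They turned Bmp4 in sorted cells (0.18), Bmp6 in hindbrain sorted minus whole (-0.11), Id3 in telencephalic sorted minus whole (-0.038) and the interactions of Bmp7 (0.10), Id1 (0.073) and Id4 (0.11). Without 1 library the regional value ran from -0.17 to 0.10 for Bmp4 and from -0.12 to 0.20 for Id1 in sorted cells, and from -0.16 to 0.27 for Id1 in whole tissue. Sorted minus whole ran from -0.48 to 0.72 for Bmp2 and -0.45 to 0.29 for Gdf7 in hindbrain, and from -1.29 to 2.42 for Gdf7 in telencephalic tissue. The interaction ran from -0.0093 to 0.21 for Bmp5, -0.17 to 0.15 for Bmp7, -2.54 to 1.16 for Gdf7, -0.24 to 0.19 for Id1, -0.25 to 0.0094 for Id2, -0.0088 to 0.17 for Id3 and -0.19 to 0.13 for Id4. The cause was not tested. Depth limits Bmp2 and telencephalic Gdf7, which rest on few counts.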

Other observations

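Hes1, a basic helix-loop-helix repressor listed with the Id partners, had 21.4 and 67.1 CPM in the hindbrain sorted replicates, against 16.2 and 15.3 CPM in hindbrain whole tissue (1.49 ± 0.37, adjusted p = 0.0136, edgeR). Gdf6, a ligand close to Gdf7 that did not pass the filter, had 0 and 19 counts in the hindbrain sorted replicates and 0 and 2 in the telencephalic sorted ones, beside 2 and 4 in hindbrain whole tissue and 2 and 0 in telencephalic whole tissue. Both genes were singled out after their values were seen.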
